A study of Mus musculus with 4 samples.

Results

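Of the 31856 m6A peaks deposited for the entacapone library, 8858 (27.8%) lay in genes that also carried m6A in the vehicle library, but at other places. Each of these extra peaks had no base in common with any of the 22860 vehicle peaks, and its midpoint lay in a protein-coding gene span that also held the midpoint of at least 1 vehicle peak. The extra peaks made up 63.0% of the 14059 entacapone peaks that overlapped no vehicle peak, which were 44.1% of the entacapone list. They fell in 5003 of the 9000 protein-coding genes with a vehicle peak (55.6%), hereafter marked genes. The extra peaks were chosen by their presence in the entacapone list and absence from the vehicle list, so neither their number nor those shares are a test.

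The study set out to map m6A in the inguinal white fat of obese mice given the drug entacapone or vehicle. Both groups were male C57BL/6 mice aged 23 weeks with obesity from a high-fat diet, and they differed in the treatment. There was 1 input library and 1 immunoprecipitate for each treatment, 4 libraries in all, and the number of animals behind a library is not stated in the labels. With 1 library of each kind there is no replicate check, so every value below describes these libraries and no p-value was computed. The input libraries held 24548212 counts for vehicle and 33164576 for entacapone, 1.35 times as many, and the read depth of the immunoprecipitates was not given in the peak lists.

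N6-methyladenosine (m6A) is a methyl mark on adenosines of messenger RNA. It is written by a complex built around METTL3 and METTL14, removed by the demethylases FTO and ALKBH5, and read by YTH-domain proteins that influence splicing, translation and decay of the transcript. Marks are densest near stop codons and in long internal exons, usually within a short motif that has GGAC at its core. Entacapone is a catechol-O-methyltransferase inhibitor used in Parkinson's disease and has also been described as an inhibitor of FTO, and inguinal fat is a subcutaneous depot of white adipocytes that also contains vessels, immune cells and a lymph node.

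Of the extra peaks, 67 in 67 genes lay wholly inside the window from 250 bp before to 50 bp after an annotated start of their own gene, where the reference sequence could be read. These are the places where the position and the letters of an extra peak can be shown together. By the rule the midpoint of each peak lies inside the gene span. A peak that ends before an annotated start therefore still lies within the gene, before a start that is inside the span. The motif GGACT, the motif GGACA or the motif GGACC, read on the gene's strand, was present in 19 of them (28.4%), against 22.6% when all 21262 start windows of protein-coding genes were read at the same offsets. GGACC was present in 14.9% against 8.59%, GGACT in 7.46% against 7.88% and GGACA in 5.97% against 8.29%. The 8 with the highest fold among those 19 are shown, each cut to at most 10 bases on either side of the first such motif and to the limits of the peak. They are written 5′ to 3′ on the gene's strand from RefSeq (GRCm38.p6), with the motif in capitals and the deposited starts read as counted from 1. The motif shown lies before the annotated start, and so outside the transcript annotated from it, in each of the 8 but Slc41a2. A match is a description of the letters and not evidence of a methylated base.
Slc41a2, chr10:83337781-83337802, minus strand: aacgcgagctGGACCcccgacg
Zfp37, chr4:62208372-62208396, minus strand: ggaggagtgcGGACAaagccaggcg
Cenpj, chr14:56571867-56571891, minus strand: aggagtcactGGACCagagttgggc
Zfp959, chr17:55891846-55891860, plus strand: GGACCtgcctgtacg
Haus2, chr2:120609465-120609487, plus strand: aacccgtgGGACCcagcgtcctc
Ice1, chr13:70637714-70637738, minus strand: ggctccacggGGACCttggcgcacg
Atp6v1g2, chr17:35236456-35236473, plus strand: ccatctctgtGGACCctg
Manea, chr4:26346723-26346747, minus strand: agacccacagGGACTccgcagctaa

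The peak over the start of Slc41a2, a magnesium transporter, had the authors' fold enrichment of 8.16 and was 104 kb from the nearest vehicle peak in the gene. The peak of Zfp37, a zinc finger gene, had a fold of 7.14, and that of Cenpj, a centriole assembly factor, a fold of 6.5. The peaks of Zfp959 (5.52), Haus2 (5.16), which encodes an augmin subunit of the spindle, and Ice1 (4.79), of the little elongation complex that serves small nuclear RNA genes, followed. Atp6v1g2, a proton pump subunit, had a fold of 4.56 with a vehicle peak 264 bp away, and Manea, an endomannosidase of the Golgi, had a fold of 3.72. In these genes other than Atp6v1g2, the nearest vehicle peak lay between 5.40 kb (Zfp959) and 104 kb (Slc41a2) away. Over all 67 peaks, the median fold was 3.22 and the median distance to the nearest vehicle peak was 15374 bp. Of the 67, 42 ended before the annotated start and 25 crossed it or lay after it.

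The extra peaks were narrow and of ordinary height. Their median fold enrichment, the authors' ratio of immunoprecipitate over input, was 2.99, with quartiles at 2.19 and 4.18 and a range from 1.49 to 13.9. Entacapone peaks that overlapped a vehicle peak in marked genes (16179, hereafter shared peaks) had a median of 2.95. Extra peaks lay more often at both ends of the scale: 17.0% were under 2-fold against 11.3% of shared peaks, and 28.9% reached 4-fold against 23.4%. Their median width was 84 bp, with quartiles at 63 and 115 bp, against 155 bp for shared peaks, and 64.5% of extra peaks were under 100 bp wide against 25.7%. A wider peak has more chances to overlap another, so the rule itself bears on this difference. The 3341 entacapone peaks in protein-coding genes with no vehicle peak were as narrow, at a median of 87 bp, and had a median fold of 2.83, with 27.5% under 2-fold. Together the extra peaks covered 872 kb. Of their fold values, 54.9% were values that 20 or more peaks of the list share exactly, against 39.1% for shared peaks. Folds also recurred exactly across genes named below. The highest extra fold was 7.28 in Gsk3b, Nfia, Pde3b, Aff1 and F13a1, and 5.96 in Nedd9, Zmiz1 and Vps13d. The median folds of Camk1d (5.96), Arhgap24 (5.30), Maml2 (4.63) and Hsd11b1 (4.63) were recurring values as well. Whether a recurring fold is particular to its gene was not tested.

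**Figure D1:**
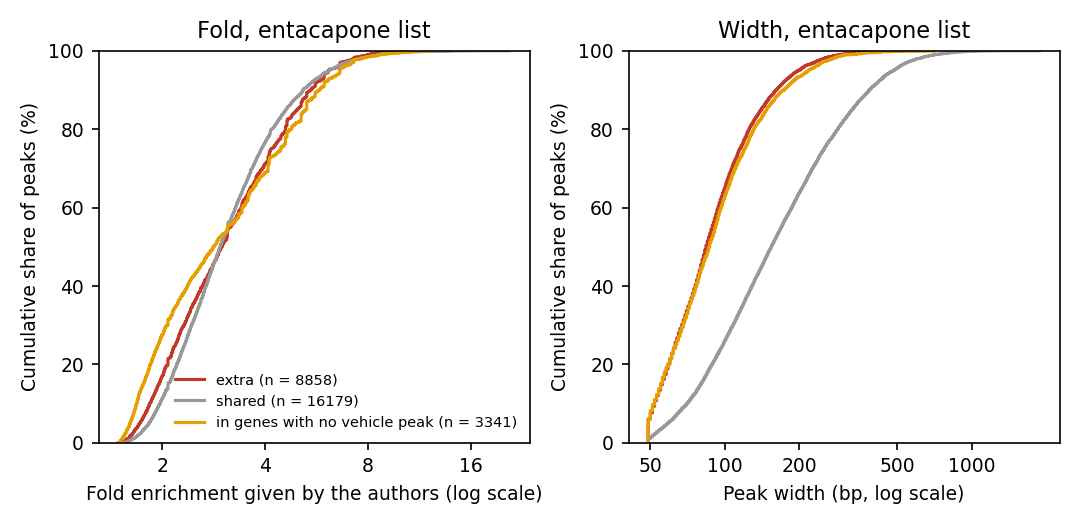
Cumulative share of entacapone peaks (vertical axis, percent) by the authors' fold enrichment (left, log scale) and by peak width in bp (right, log scale), for 8858 extra peaks, 16179 shared peaks in marked genes and 3341 peaks in protein-coding genes with no vehicle peak, all of 1 library. The fold curves cross near the medians of 2.99, 2.95 and 2.83, while the width curve of the extra peaks, with a median of 84 bp, lies far to the left of the shared peaks' curve, with a median of 155 bp.

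The same count turned around gives the measure of the opposite change. In protein-coding genes with an entacapone peak, 3651 vehicle peaks (16% of the vehicle list) overlapped no entacapone peak. They were part of the 4858 vehicle peaks without an entacapone overlap (21.3%), and 2741 of the 10935 genes with an entacapone peak (25.1%) held at least 1. Extra entacapone peaks were thus 2.43 times as numerous as these vehicle-only peaks, in a list that was 1.39 times as long. The ratio did not keep its direction with equal numbers of top-ranked peaks by fold. For this the entacapone list was cut to its 22860 highest peaks, while the vehicle list stayed whole. Then 5957 extra peaks stood against 6380 vehicle-only peaks, a ratio of 0.934. A vehicle peak there also counts as vehicle-only where its entacapone counterpart was cut, so the cut itself bears on this ratio. With only peaks of at least 4-fold in either list the ratio was 1.12, with 2577 extra peaks in 1689 genes against 2308 vehicle-only peaks. In the 4-fold setting an entacapone peak also counts as extra where its vehicle counterpart is under 4-fold, and the reverse holds for vehicle-only peaks. Vehicle-only peaks had a median fold of 3.60 in the full lists, and 3.81% of them were under 2-fold. Peak number and library depth cannot be told apart from treatment here.

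Most extra peaks lay at some distance from the marks already present. The median distance between the nearest edges of an extra peak and a vehicle peak of the same gene was 2785.5 bp (95% interval of the median 2606 to 3017 bp, counting error only), with quartiles at 477 and 13770 bp. Within 1 kb of a vehicle peak lay 3126 extra peaks, or 35.3% (exact binomial 95% interval 34.3% to 36.3%). Within 100 bp lay 281 (3.17%), within 200 bp 1036 (11.7%) and within 10 kb 6165 (69.6%), whereas 273 (3.08%) were over 100 kb away. Vehicle-only peaks lay somewhat closer to the nearest entacapone peak, at a median of 1825 bp (1606 to 2039 bp), with 40.9% within 1 kb. The denser entacapone list offers them more neighbours, and with equal numbers of top-ranked peaks the medians were 2899 bp for extra and 2510.5 bp for vehicle-only peaks. The 12732 gaps between neighbouring vehicle peaks of the same gene had a median of 1211.5 bp, and 47.4% of those gaps were 1 kb or less. Such gaps exist only in genes with at least 2 vehicle peaks and are not distances to the nearest peak on either side. They are therefore an unlike measure to the distances above.

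**Figure D2:**
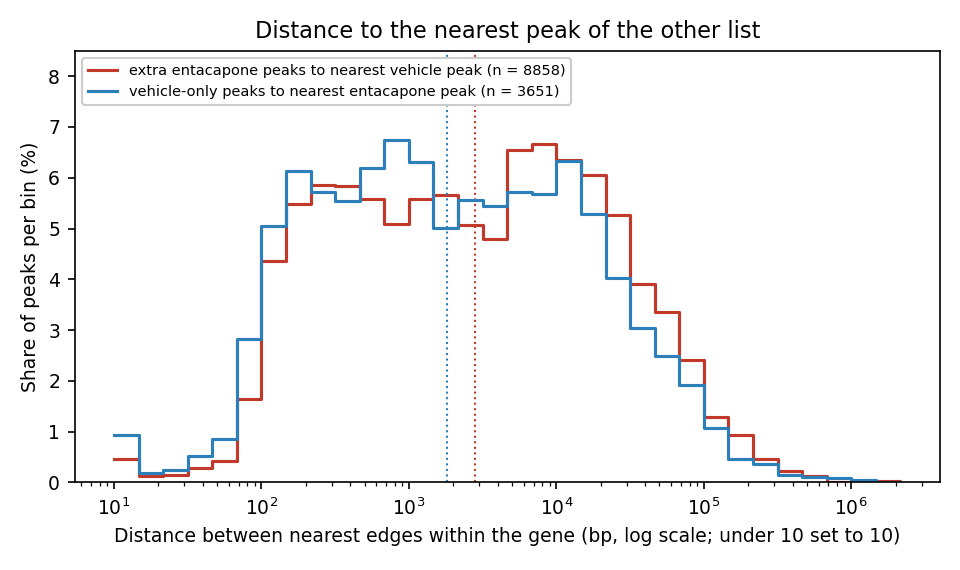
Share of peaks per bin (vertical axis, percent) by the distance in bp to the nearest peak of the other list in the same gene (horizontal axis, log scale), for 8858 extra entacapone peaks and 3651 vehicle-only peaks; dotted lines mark the medians of 2785.5 and 1825 bp. Each distribution spreads over several orders of magnitude, and the extra peaks take the larger shares beyond about 10 kb.

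Distance followed how many vehicle peaks a gene had and how long it was. Extra peaks in genes with 1 vehicle peak had a median distance of 6272.5 bp, and 25.4% were within 1 kb. In genes with 2 vehicle peaks the median was 2790 bp, in those with 3 or 4 it was 1720 bp, and in those with 5 or more it was 1499 bp. In genes shorter than 20 kb the median was 924 bp, against 766 bp for vehicle-only peaks, and in genes over 100 kb it was 8712 bp against 4388 bp. The fold of an extra peak was higher at greater distance: the median was 2.85 for the 1036 within 200 bp, 2.89 for the 3039 between 1 and 10 kb, 3.35 for the 2420 between 10 and 100 kb and 4.11 for the 273 beyond 100 kb. Of those beyond 100 kb, 54.2% reached 4-fold, against 21.4% within 200 bp. The genes differed as well: their median span was 33.2 kb within 200 bp, 69.7 kb between 10 and 100 kb and 259 kb beyond 100 kb. The part of gene length, and of fold values that recur exactly in the list, in these higher folds was not tested.

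At the near edge of the rule, 4 extra peaks touched a vehicle peak without sharing a base. They lay in Ncoa2, which encodes a nuclear receptor coactivator (chr1:13175105-13175286, fold 2.59), in the homeobox gene Six4 (fold 3.57), in Nr2f1, an orphan nuclear receptor (fold 3.51), and in Gm4631, a predicted gene (fold 1.69). The next closest was in Esr1, the oestrogen receptor alpha gene, 1 bp from its neighbour with a fold of 3.86. Just inside the rule, 21 extra peaks lay 0 to 5 bp from a vehicle peak, with a median fold of 2.96. Just outside it, 29 shared peaks overlapped by 1 to 5 bp, with a median fold of 2.74, such as a peak in the helicase gene Ddx31 with a 1 bp overlap and a fold of 3.51. For 1971 extra peaks (22.3%), the nearest vehicle peak was itself vehicle-only, 592 of them within 1 kb. Of all vehicle peaks in these genes, 20.8% were vehicle-only.

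At the far end of the distances stood 5 genes with 1 or 2 vehicle peaks and 1 or 2 extra peaks each. An extra peak in Dlg2, a synaptic scaffold gene, lay 1970942 bp from the only vehicle peak there, with a fold of 3.88. The others were in Magi2, a junction scaffold (1476255 bp, fold 4.63), Nkain2, which encodes a partner of the sodium pump (1200072 bp, fold 5.96), Naaladl2, a peptidase-like gene (952559 bp, fold 6.62), and Opcml, a cell adhesion gene (626280 bp, fold 2.85).

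The highest extra peak of the whole list was in Slc23a2, which encodes the vitamin C transporter SVCT2 (chr2:132145029-132145083). It had a fold of 13.9 and lay 88.2 kb from the only vehicle peak of the gene, which had a fold of 4.16. Immp2l, a mitochondrial inner membrane peptidase gene, followed with 12.3. The next peaks were in the predicted gene Gm7592 (11.7), in Tubb4a, a beta tubulin (11.4), and in Sec24d, of the vesicle coat that leaves the endoplasmic reticulum (11.0). Echdc1, an enzyme that clears side products of fatty acid synthesis, and Zbtb16, a transcription factor gene also known as PLZF, each had a peak of 10.7. Xirp1, an actin-binding protein of muscle (10.4), Kif20b, a mitotic kinesin (10.4), and Iqsec2, an exchange factor for ARF6 (10.2), completed the 10. The Xirp1 peak lay 109 bp from a vehicle peak and the Sec24d peak 803 bp from one, while the other 8 were 3.10 kb or more away.

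Most marked genes with an extra peak held only a few. Of the 5003 genes, 2761 (55.2%) had 1 extra peak, 1313 (26.2%) had 2, and 929 had 3 or more, which together held 3471 extra peaks (39.2%). In 3041 of the genes (60.8%) no vehicle peak was missing from the entacapone list. Genes with an extra peak did not stand out by keeping their vehicle peaks. Of the vehicle peaks in the 5003 genes, 20.8% were vehicle-only, near the 21.3% of the whole vehicle list. Of all 10935 genes with an entacapone peak, 25.1% held a vehicle-only peak, a count that includes genes with no vehicle peak. In 970 genes the extra peaks outnumbered all vehicle peaks. Among vehicle-only peaks, 174 genes held 3 or more and 2 genes held 7, Mki67, which encodes the proliferation marker Ki-67, and Slc8a1, a sodium-calcium exchanger. By contrast, 36 genes held 7 or more extra peaks. The share of marked genes with an extra peak was 48.7% among those with 1 vehicle peak and 85.1% among those with 10 or more, but extra peaks per vehicle peak went the other way, from 0.75 to 0.19. By length the share was 44.0% for spans under 20 kb, 60.5% from 20 to 100 kb and 69.6% over 100 kb, so any gene list with long genes starts from a higher share.

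The 25 genes with most extra peaks carried 7 to 11 each. They held 214 extra peaks (2.42% of all) beside 132 vehicle peaks, and 19 of the 25 had more extra than vehicle peaks. Their median span was 183 kb, from 48.4 to 735 kb, against 28.6 kb for marked genes, and 20 of them were over 100 kb long. Of the 214 peaks, 160 were at least 2-fold and 66 at least 4-fold, and 28 vehicle peaks in 13 of the genes were missing from the entacapone list. The ranking depended on low folds and on list length: with only peaks of at least 2-fold 15 of the genes stayed among the top 25, with at least 4-fold 7, and with equal numbers of top-ranked peaks 12. With a peak counted in every marked gene that holds it, 8 stayed, because 14 genes of a protocadherin cluster with overlapping spans and 3 predicted genes entered. Counted so, the predicted genes Gm37013, Gm38666 and Gm38667 held 40 extra peaks each and Pcdhga1 held 18, above the 11 of Trdn. The roles below group the genes for reading and were assigned after the ranking was seen.

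**Figure D3:**
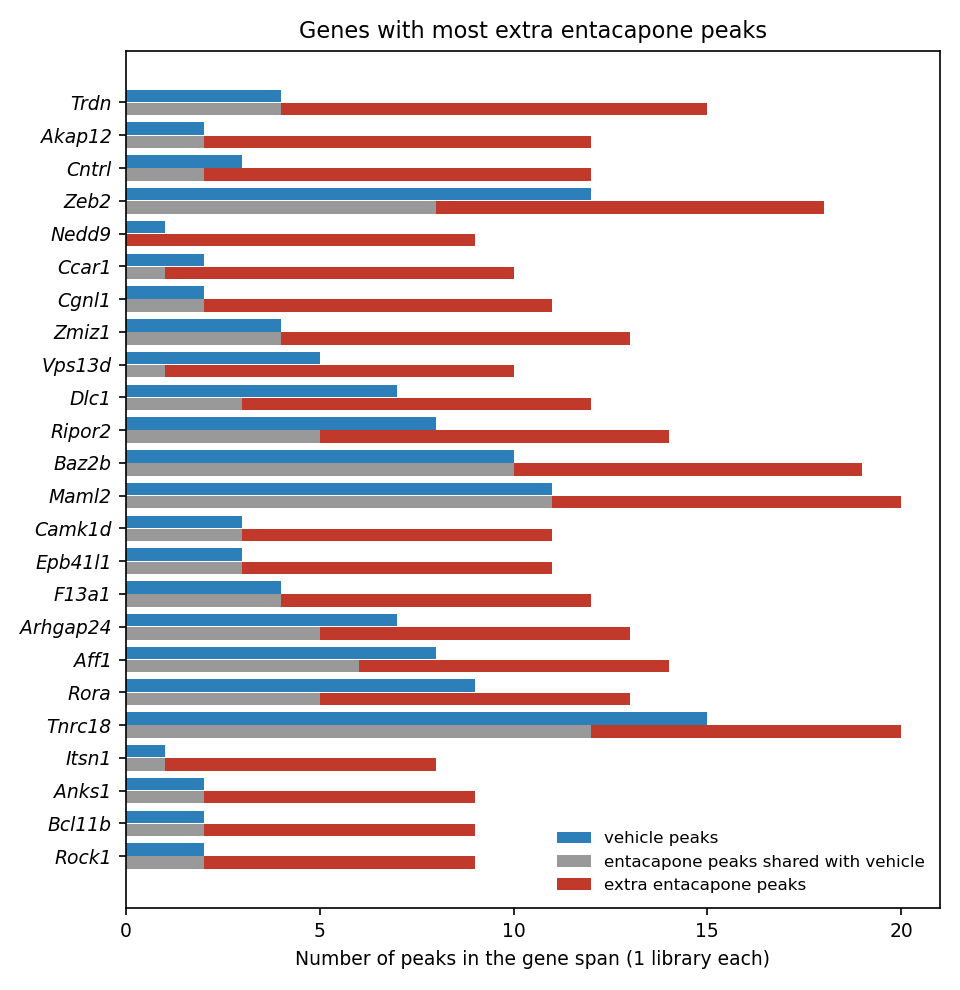
Number of peaks (horizontal axis) in genes among the 25 with most extra peaks, for the vehicle library (blue) and for the entacapone library, split into shared (grey) and extra (red) peaks; 1 library each, no error. Trdn had 4 vehicle and 15 entacapone peaks, Nedd9 had 1 and 9, and Tnrc18, with 15 and 20, had the most vehicle peaks.

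Genes of adhesion and the actin cytoskeleton were among them. Nedd9, a scaffold of focal adhesions, had 1 vehicle peak with a fold of 7.29, missing from the entacapone list, and 9 extra peaks with folds from 1.73 to 5.96. Of these 9, 6 lay within the last 7 kb of the 177 kb span, all between 1.73-fold and 2.26-fold, and 1 lay 0.091 kb after the annotated start with a fold of 2.59. Cgnl1, which encodes the junction protein paracingulin, had 2 vehicle peaks near its end (folds 2.15 and 1.93), both shared, and 9 extra peaks of 1.61-fold to 2.03-fold in an unbroken run upstream of them. That was the longest run without a vehicle peak in any gene. Itsn1, an endocytic scaffold that activates CDC42, had 1 vehicle peak and 7 extra peaks (median fold 2.05), all at least 69600 bp away from it. Rock1, a kinase that promotes actomyosin contraction, had 2 vehicle peaks and 7 extra peaks, from 1.89-fold to 2.52-fold.

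Further genes of this kind follow. Dlc1, a GTPase-activating protein, had 7 vehicle peaks, 4 of them missing from the entacapone list, and 9 extra peaks with a median fold of 1.66. Arhgap24, which acts on Rac, had 7 vehicle peaks and 8 extra peaks of higher fold, at a median of 5.30 and up to 8.62. Ripor2, a regulator of cell polarity, had 8 vehicle peaks and 9 extra peaks from 2.45-fold to 9.51-fold, 5 of them within 1 kb of a vehicle peak. In Ripor2, 1 extra peak lay at 96.4 kb from the start between shared peaks at 96.2 and 96.7 kb, whereas 4 others lay 5372 to 13674 bp from any vehicle peak, among them the highest (fold 9.51). Epb41l1, of the band 4.1 family that links membranes to actin, had 3 vehicle peaks and 8 extra peaks with a median fold of 1.79.

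The next group regulates transcription. Zeb2, a repressor that acts in TGF-beta signalling, had 12 vehicle peaks, of which 4 were missing under entacapone, and 10 extra peaks with a median fold of 2.00. Maml2, a coactivator of Notch, had 11 vehicle peaks, all shared, and 9 extra peaks with a median fold of 4.63. Baz2b, a bromodomain protein of chromatin remodelling complexes, had 10 vehicle peaks, all shared, and 9 extra peaks with a median fold of 2.59, 1 of them 17 bp from a vehicle peak. Rora, a nuclear receptor that drives clock genes, had 9 vehicle peaks and 8 extra peaks at a median fold of 5.87. The extra peaks of Rora were scattered over 711 kb of the gene, yet each lay within 10036 bp of a vehicle peak. Bcl11b, a transcription factor of T cells, had 2 vehicle peaks and 7 extra peaks, 6 of them at least 4-fold. Zmiz1, a coactivator of the PIAS family (4 vehicle and 9 extra peaks), Ccar1, a coactivator that binds Mediator (2 and 9), Aff1, of the super elongation complex (8 and 8), and Tnrc18, a large nuclear protein (15 and 8), complete the group. In Tnrc18, 5 of the 8 extra peaks lay within 1 kb of a vehicle peak, and the longest stretch without a vehicle peak held 2 extra peaks.

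The remaining genes had varied roles. Trdn, which encodes triadin of the calcium release complex in striated muscle, headed the ranking with 4 vehicle peaks, all shared, and 11 extra peaks from 2.27-fold to 8.5-fold over 354 kb. Akap12, a scaffold for protein kinases A and C, had 2 vehicle peaks (folds 3.25 and 1.80) and 10 extra peaks. All 10 lay within 4.45 kb, at chr10:4353437-4357889, around the second vehicle peak, with folds from 1.63 to 2.43. Cntrl, the centrosomal protein centriolin, had 10 extra peaks from 1.84-fold to 4.29-fold, spread over 55.1 kb, and 3 vehicle peaks. Vps13d, a lipid transfer protein (5 vehicle peaks, 4 of them missing under entacapone), had 9 extra peaks. Camk1d, a calcium-dependent kinase, had 3 vehicle and 8 extra peaks at a median fold of 5.96. F13a1, the A chain of coagulation factor XIII, made by macrophages among others, had 4 vehicle and 8 extra peaks at a median of 4.28. Anks1, an adaptor of Eph receptors, had 2 vehicle and 7 extra peaks.

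**Figure D4:**
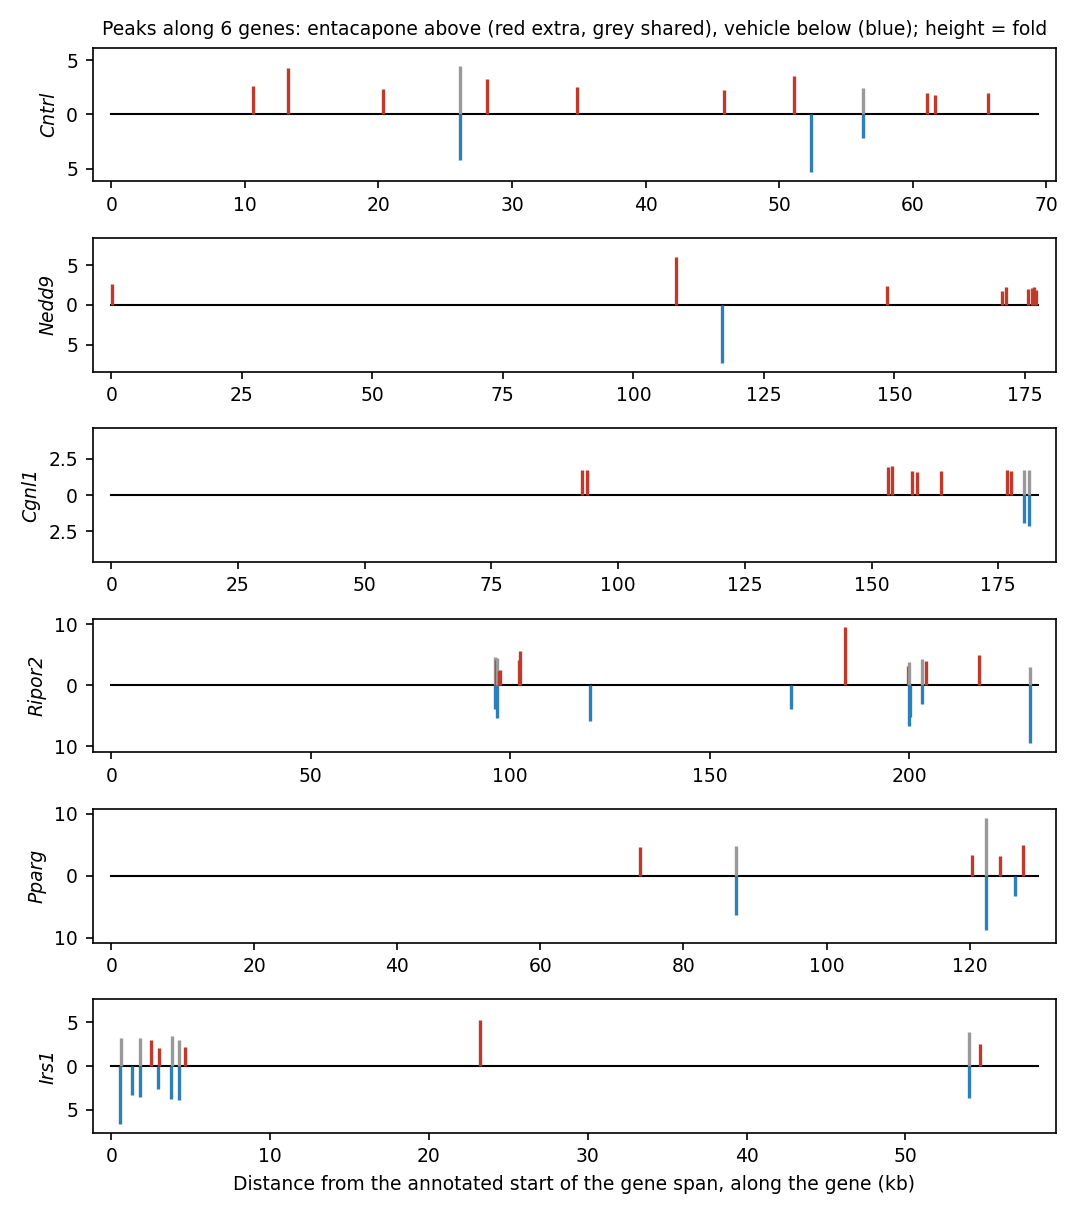
Peaks along 6 genes by distance from the annotated start (horizontal axis, kb), with the height giving the authors' fold enrichment (vertical axis): entacapone peaks point up (red extra, grey shared) and vehicle peaks point down (blue), 1 library each. Extra peaks ran at even low height along Cgnl1, crowded at the end of Nedd9, and lay both near to and far from vehicle peaks in Ripor2 and Irs1.

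Genes with 1 vehicle peak and many extra peaks were picked out after their values were seen. After Nedd9 and Itsn1, the 6 genes with 6 extra peaks were Ablim1, Ahnak, Cald1, Hsd11b1, Larp1b and Nop14. In Ahnak, a giant scaffold protein gene, the 6 extra peaks lay within 8.24 kb and had folds from 1.57 to 2.08, and in Cald1, the caldesmon gene, they ran from 1.58 to 2.53. Hsd11b1, the enzyme that regenerates active glucocorticoid in fat, differed from these: its 6 extra peaks had folds from 4.61 to 6.12 in a span of 42.4 kb. Extra peaks also followed each other elsewhere. Of the 6097 in genes with at least 2, 1752 (28.7%) had another extra peak within 1 kb. In 397 genes 3 or more extra peaks stood in a row with no vehicle peak between them, and in 37 genes 5 or more did.

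Along the gene, extra peaks were less concentrated at the 3′ end than shared peaks of the same genes. Strand was known for 3972 of the genes, with 7032 extra peaks. Within 5 kb of the 3′ end of the span lay 37.9% of extra peaks, against 48.5% of the shared peaks in the same genes. Within 1 kb of the 5′ end lay 12.5% (exact binomial 95% interval 11.7% to 13.3%) against 7.18% (6.62% to 7.76%), and the median relative position from start to end was 0.69 against 0.82. Vehicle-only peaks resembled the extra peaks, with 12.1% within 1 kb of the 5′ end and a median relative position of 0.67. The same position was thus seen for peaks absent from the other list in either direction. Position also differed with distance from a vehicle peak. Of extra peaks over 10 kb away, 20.7% were within 1 kb of the 5′ end and 7.03% within 1 kb of the 3′ end. Of those within 1 kb of a vehicle peak, 7.64% and 18.5% were. The split itself bears on this difference, because shared peaks, and so the vehicle peaks they overlap, crowd the 3′ end. Extra peaks far from any vehicle peak are thereby kept from that end, and near extra peaks are drawn to it. A distance over 10 kb also needs a longer gene. The part of these limits in the difference was not tested.

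Extra peaks more often preceded than followed the vehicle peaks. In genes with at least 2 vehicle peaks, 30.9% of 4837 extra peaks lay before the first of them, 46.8% between and 22.2% after the last. Vehicle-only peaks leaned the same way in genes with at least 2 entacapone peaks, with 25.6% before, 55.5% between and 18.8% after. The length of gene free on either side was not taken into account. In genes with 1 vehicle peak, 55.6% of 2195 lay upstream of it and 44.4% downstream, and for vehicle-only peaks beside 1 entacapone peak the shares were 55.7% and 44.3%. Start windows overlapped 446 extra peaks, or 5.03% (4.59% to 5.51%), against 3.35% of shared peaks and 4.74% of vehicle-only peaks. Exon, intron and UTR positions were not analysed here, since no genome annotation of exons was used. Extra peaks overlapped annotated miRNA hairpins at 2 places, Mir1895 in Cxxc4 (fold 5.61) and Mir7238 in Ankrd10 (fold 4.88).

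Named gene lists of 19 pathways and cell types, with 319 marked genes between them, put the extra peaks into the biology of the tissue. Extra peaks lay in 214 of those 319. The share for all marked genes was 55.6%, with a median of 1 extra peak, and it is the figure to set each list against; list members often are longer than the median marked gene. Of the 16 lists with at least 5 marked genes, 12 were above that share, 13 with only peaks of at least 2-fold (then 52.9% for all marked genes), 11 with at least 4-fold (39.1%) and 13 with equal numbers of top-ranked peaks (41.9%).

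**Figure D5:**
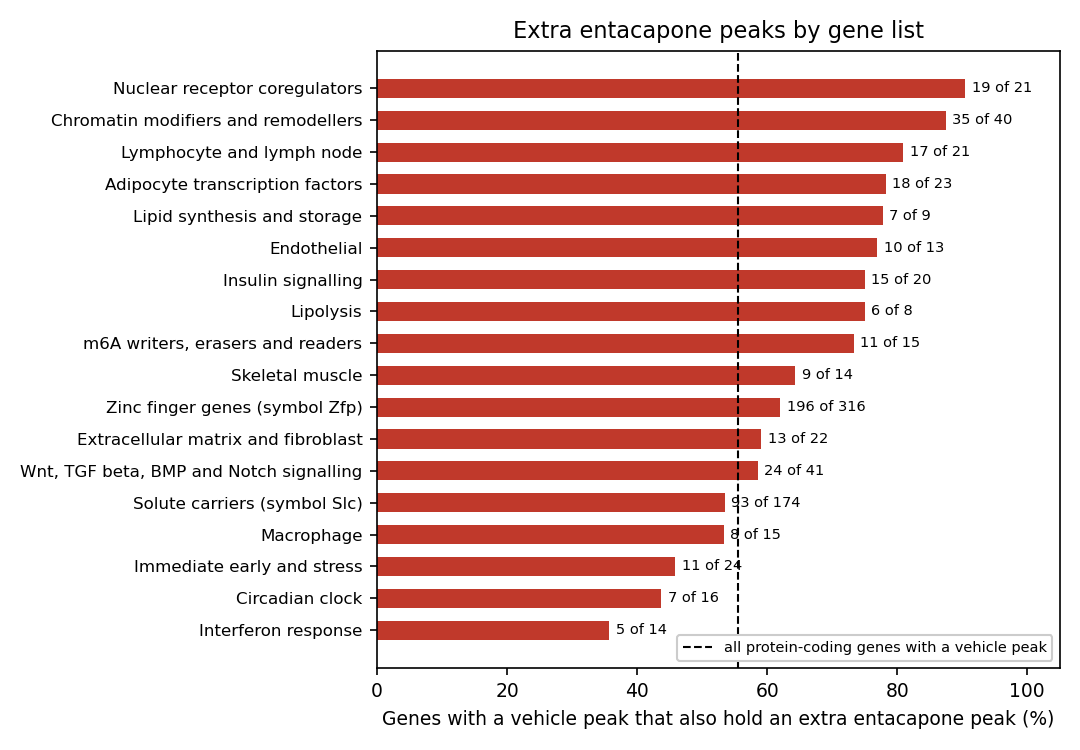
Percent of the marked genes of each list that held at least 1 extra peak (horizontal axis), with the counts beside each bar, for lists with at least 5 marked genes and 2 families taken by symbol; the dashed line is the 55.6% of all marked genes. Nuclear receptor coregulators (19 of 21) and chromatin modifiers (35 of 40) stand highest and interferon response genes (5 of 14) lowest; 1 library per treatment, no error.

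Insulin signalling genes carried extra peaks in 15 of 20 marked members (75%), with 37 extra peaks and a median of 2 beside 62 vehicle peaks. The median span of this list was 93.5 kb, against 28.6 kb for all marked genes. Irs1, the insulin receptor substrate, had 7 vehicle peaks and 5 extra peaks. The vehicle folds along Irs1 were 6.65, 3.36, 3.58, 2.62, 3.79, 3.89 and 3.68 from the start to the end of the gene. The extra peaks, with folds of 2.95, 2.08, 2.21, 5.30 and 2.56, lay at 2.52, 3.03, 4.62, 23.2 and 54.7 kb. The extra peak at 3.03 kb lay 4 bp from the vehicle peak at 2.92 kb, which itself counted as missing under entacapone. Other members were Insr, the insulin receptor (4 vehicle and 2 extra peaks), Igf1r (4 and 3), Igf1 (1 and 3) and Tbc1d4, a Rab regulator of glucose transporter traffic (3 and 2). Irs2 had 6 and 2, with extra folds of up to 1.89. Foxo1, a transcription factor restrained by insulin, had 5 and 2, with extra folds of up to 1.79. Gsk3b, the kinase of glycogen synthase, had 1 extra peak with a fold of 7.28 at 119631 bp from its vehicle peak. Exactly this value was also the highest extra fold of Nfia and of Pde3b.

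Adipocyte transcription factors held 52 extra and 79 vehicle peaks, with an extra peak in 18 of 23 marked members (78.3%). Pparg, the master regulator of fat cell differentiation, had 3 vehicle peaks with folds of 6.37, 8.73 and 3.35. The first pair recurred under entacapone at 4.88 and 9.39, the last was missing, and 4 extra peaks had folds of 4.63, 3.35, 3.27 and 4.98. Its partner Rxra had 1 vehicle peak, missing under entacapone, and 5 extra peaks, with folds of 5.36, 1.76, 1.61, 1.68 and 2.06. Ppargc1a, the coactivator of mitochondrial genes, had 2 vehicle peaks, both missing, and 6 extra peaks up to 5.70-fold, the farthest of them 619825 bp away. Nfia, a factor of brown fat identity, had 7 vehicle and 7 extra peaks up to 7.28-fold, and Prdm16, another such factor, had 14 and 4, all 4 within 699 bp of a vehicle peak. Ebf1 (6 and 5), Ebf2 (4 and 4) and Klf15 (4 and 2) were further members.

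Of the genes of lipid synthesis and storage 9 of 25 were marked, and of lipolysis 8 of 17. Over all protein-coding genes it was 9000 of 21896. In lipid synthesis and storage, 7 of 9 marked members (77.8%) held extra peaks. Acaca, which makes malonyl-CoA for fatty acid synthesis, had 1 vehicle peak, missing under entacapone, and 4 extra peaks. Their folds were 5.30, 1.69, 1.81 and 1.83, and with only peaks of at least 2-fold in both lists Acaca had 0 extra peaks. Plin1, the coat of the lipid droplet, had 2 vehicle and 3 extra peaks, and Cd36, a fatty acid transporter, 2 and 3. In lipolysis it was 6 of 8 (75%). Pde3b, the phosphodiesterase through which insulin restrains lipolysis, had 1 vehicle peak and 5 extra peaks up to 7.28-fold, 1 of them 59 bp from the vehicle peak. Mgll, monoacylglycerol lipase, had 2 and 3, and Prkar2b, a subunit of protein kinase A, 4 and 3 with 3 vehicle peaks missing. Npr3, the clearance receptor of natriuretic peptides, went from 5 vehicle to 3 entacapone peaks, as 4 vehicle peaks were missing and 2 extra peaks under 2-fold were present. Of fatty acid oxidation genes, 1 of 3 held extra peaks, Cpt2, with 3 that reached 1.66-fold. Of oxidative phosphorylation genes, 2 of 3 did, and of cytosolic ribosomal protein genes 0 of 1.

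Coregulators and chromatin genes had the highest shares when all deposited peaks were used, an order that other settings changed. Extra peaks lay in 19 of 21 marked coregulators of nuclear receptors (90.5%), with 48 extra and 97 vehicle peaks. Their medians were 5 vehicle peaks and a span of 90.6 kb, against 2 and 28.6 kb for all marked genes. Among all marked genes with 5 to 9 vehicle peaks the share was 73.1%. Ep300, a histone acetyltransferase, had 5 vehicle peaks, all shared, and 5 extra peaks, and Hdac4 had 1 and 4. Ncor1, a corepressor, had 5 vehicle peaks, 3 of them missing, and 5 extra peaks. Those of Ncor1 had folds of 1.69, 2.80, 1.96, 1.63 and 1.70. Of chromatin modifiers and remodellers, 35 of 40 (87.5%) held extra peaks. This list also had a median of 6.5 vehicle peaks per gene, and it held 97 extra peaks to 269 vehicle peaks, or 0.36 extra peaks per vehicle peak against 0.41 over all marked genes. With only peaks of at least 4-fold, coregulators were at 53.3% and chromatin genes at 69%, below insulin signalling at 72.7%. At 2-fold insulin signalling (83.3%) also passed chromatin genes (82.5%), but not coregulators (90.5%). With equal numbers of top-ranked peaks coregulators were at 85.7%, adipocyte transcription factors at 73.9% and chromatin genes at 72.5%, while insulin signalling was at 50.0%. Kmt2a, a histone H3 lysine methyltransferase, had 14 vehicle and 7 extra peaks, Arid1b, of the BAF remodeller, 5 and 6, and Smarca2, its ATPase, 5 and 5. The extra peaks of Smarca2 had folds of 1.67, 5.61, 1.84, 1.69 and 1.87.

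The m6A machinery carried extra peaks on its own transcripts in 11 of 15 marked members (73.3%), 20 in all beside 55 vehicle peaks. Fto, the demethylase reported as a target of the drug, had 1 vehicle peak and 2 extra peaks of up to 2.12-fold, at 95729 and 353097 bp from it. Alkbh5, the other demethylase, had 1 vehicle peak and 1 extra peak of 1.81-fold. Among writers, Rbm15, an adaptor of the methyltransferase, had 5 and 5, all 5 extra peaks within 964 bp of a vehicle peak, Virma 4 and 2, Wtap 4 and 1, and Zc3h13 11 and 2 with 3 vehicle peaks missing. Among readers, Ythdf3 had 5 and 3, Ythdf2 3 and 1, Ythdf1 3 and 1 and Ythdc1 6 and 1. No extra peak of this list passed 3.51-fold. Its share was 12.5% (1 of 8) with only peaks of at least 4-fold in either list and 33.3% (5 of 15) with equal numbers of top-ranked peaks, in each case below all marked genes. At 2-fold it was 60.0% (9 of 15), above them.

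In signalling and matrix lists the share was near that of all marked genes. Wnt, TGF-beta, BMP and Notch genes held extra peaks in 24 of 41 marked members (58.5%). Tgfbr3, the betaglycan coreceptor, had 5 vehicle peaks, all shared, and 7 extra peaks up to 5.96-fold, and Tgfbr2 had 3 and 1, the extra peak at 7.61-fold. Extracellular matrix and fibroblast genes held extra peaks in 13 of 22 (59.1%), with Col6a3, a type VI collagen chain of fat, at 4 and 7, and Vcan, versican, at 3 and 4. With only peaks of at least 4-fold, both lists were below all marked genes, and in the other settings on fold above them.

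Lists of other cells of the depot carried extra peaks too. Lymphocyte and lymph node genes held them in 17 of 21 marked members (81.0%), with 49 extra and 53 vehicle peaks. The median span of this list was 81.4 kb, against 28.6 kb for all marked genes. Examples were Pax5, the B cell factor (4 vehicle and 5 extra peaks, up to 6.62-fold), Bach2 (4 and 5), Blk, a B cell kinase (1 and 4), and Cxcr5, a homing receptor of follicles (1 and 3). Endothelial genes held them in 10 of 13 (76.9%), such as Vwf, von Willebrand factor (2 and 5). Their share was below all marked genes at 2-fold (50.0%), but above at 4-fold (60.0%, 3 of 5) and with equal numbers of top-ranked peaks (46.2%). Skeletal muscle genes held them in 9 of 14 (64.3%), among them Neb (1 vehicle and 3 extra peaks) and Myh7, which had 5 vehicle peaks, 4 of them missing, and 3 extra peaks. Macrophage genes held them in 8 of 15 (53.3%), with Mrc1 at 1 and 3. Their share was above all marked genes at 2-fold (57.1%) and with equal numbers of top-ranked peaks (46.7%), and below at 4-fold (14.3%).

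Interferon, stress and clock genes had the lowest shares of the lists with at least 5 marked genes when all deposited peaks were used. Immediate early and stress genes held extra peaks in 11 of 24 marked members (45.8%), but in 50.0% (4 of 8) at 4-fold, above all marked genes. Jun, a subunit of AP-1, had 2 vehicle and 4 extra peaks, all 4 within 772 bp of a vehicle peak. Circadian clock genes held extra peaks in 7 of 16 (43.8%), but the list was above all marked genes in the other settings, at 57.1% with 2-fold, 40.0% (2 of 5) with 4-fold and 43.8% with equal numbers of top-ranked peaks. It held 22 extra peaks in all, of which Rora had 8 and Per2, a clock repressor, 5. Interferon response genes held extra peaks in 5 of 14 (35.7%), 1 each in Ifit3, Oas3, Stat2, Rsad2 and Ifih1, and the list stayed below all marked genes in all 3 of those other settings. Its genes were short, with a median span of 19.3 kb, and immediate early genes shorter still, at 4.02 kb, against 95.6 kb for adipocyte transcription factors. Of 2 large families taken by symbol, zinc finger genes held extra peaks in 196 of 316 (62.0%) and solute carriers in 93 of 174 (53.4%).

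The tissue label could be checked only through the peaks, as the input counts carry identifiers that the sources used here do not pair with gene names. Of 7 adipocyte markers, 4 had a vehicle peak, 5 an entacapone peak and 3 an extra peak (Plin1, Cidec and Pparg), while Adipoq and Fabp4 had no peak in either list. Of 5 lymph node markers, 3 had a vehicle and 4 an entacapone peak, and 2 an extra peak (Pax5 and Cd79a). Of 5 skeletal muscle markers, 3 had a vehicle and 2 an entacapone peak, and 2 an extra peak (Myh1 and Neb). Of 4 endothelial markers, 1 had a vehicle peak (Vwf, which also held extra peaks) and 4 an entacapone peak: Cdh5 had 0 vehicle and 5 entacapone peaks, Pecam1 0 and 4, and Tek 0 and 3. Of 4 macrophage markers, 2 had a vehicle peak and 1 an entacapone peak (Mrc1, which held extra peaks). Of 3 fibroblast markers, 1 had a vehicle and 2 an entacapone peak, and 0 an extra peak. A marker with no vehicle peak cannot hold an extra peak by the rule. Fewer cells of a type, less RNA per cell and less m6A per transcript cannot be told apart in these lists, and the part of cell makeup in the extra peaks was not tested.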

How the data were processed

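Per the labels, poly(A) RNA was fragmented, pulled down with an antibody against m6A and sequenced beside its input. Per the submitters' processing notes, alignment and peak tools were TopHat2 2.1.1 and MACS2, on mm10; how peaks were thresholded, how reads were counted and which release of MACS2 ran is not given in the sources used here. Each deposited peak list gives a chromosome, start, end and an unlabelled number, read as the authors' fold enrichment (a ratio of immunoprecipitate over input); whether starts count from 0 or 1 is not stated. The deposited input values are raw counts for 37315 identifiers; only their totals were used, because no table given here pairs the identifiers with gene names.

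Overlap meant at least 1 bp. Gene spans came from the RefSeq table for GRCm38.p6, and an extra peak in several marked genes (250 peaks) was given to the shortest. Distance was measured between nearest edges, to the nearest vehicle peak of any marked gene whose span held the midpoint. For those 250 peaks it can be a vehicle peak outside the shortest gene. Strand and start windows came from RefSeq promoter sequences. Gene lists (507 genes, 505 matched by symbol) and the extra peaks themselves were chosen with earlier results of these data known. Named were the 25 genes with most extra peaks (ties by extra peaks per vehicle peak), the 10 peaks of largest fold, the 5 closest and 5 farthest, and members of the lists; genes named beyond this rule were chosen after their values were seen, and some genes under it are not reported here. Python 3.11.15, numpy 2.4.6, pandas 2.3.3 and scipy 1.17.1 were used, and the distance and overlap code was tested on simulated data. Intervals are exact binomial at 95% and cover counting error only. Alternatives changed the overlap, the fold minimum, the number of peaks kept and the assignment to genes.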

Additional observations from a re-analysis of the deposited data

How the results depend on the processing

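Of 44 recomputed values, 30 stayed within their spread or within 1.5 times, 13 moved and 1 reversed; alternatives for the ratio, and all but 2 of those for the top 25 genes, were chosen after seeing the data. With only peaks of at least 4-fold, extra peaks numbered 2577 in 1689 genes, their median distance to a vehicle peak was 4736 bp, 29.0% were within 1 kb, the ratio to vehicle-only peaks was 1.12 and 7 of the 25 genes stayed. That setting removes most peaks of each list. With an overlap of 50% of the shorter peak needed to count as shared, the median distance was 2348 bp and 38.2% were within 1 kb; with a vehicle peak within 100 bp also counted as shared, 3166.5 bp and 33.2%. Those settings add or remove near neighbours by construction. With equal numbers of top-ranked peaks the ratio was 0.934 and 12 of the 25 genes stayed; with peaks of at least 2-fold 15 stayed, and with a peak counted in every marked gene 8. The cause of these was not tested.

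No paired analysis was possible because each kind had 1 library and the labels give no replicate numbers; no replicate was left out, for the same reason. The planned comparison of input counts, with its alternatives of scaling and of a filter on low counts, was not run, for want of gene names for the identifiers. The depth of the immunoprecipitates is unknown here, so a peak missing from a list is not shown to be absent from the RNA.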
